A study of Bos taurus with 6 samples.

Results

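The DNA methylation signal of 6 genes of the pluripotent state, POU5F1, NANOG, LIN28A, LIN28B, SALL4 and PRDM14, was examined in bovine dermal fibroblasts. The genes were taken by the symbol that the deposited files print beside each window of 3 kb, and all 6 were found among 26227 labelled genes. They carried 65 of the 354832 labelled windows, in a table of 902984 windows in all. For each gene the most 5′ labelled window on its strand (the first window), the window next upstream and the remaining labelled windows (the body) were read in every library and ranked against all labelled genes.

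Fibroblasts had been grown from skin of 3 Holstein heifers at 5 months of age and again, from the same animals, at 16 months. Genomic DNA of untreated cells at passage 5 was enriched for methylated CpG sites by pulldown with methyl-binding proteins (MIRA) and sequenced, which gave 1 library per animal and age (n = 3 per age). All 6 libraries share breed, cell type, passage and the absence of treatment, and each animal is represented at each age by 1 culture, so that the spread between animals includes that between cultures, and age cannot be told apart from the time of sampling. Between 19.9 and 43.6 M reads were counted in windows per library, and levels are given as RPKM, the reads per kilobase and per M matched reads.

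POU5F1 and NANOG encode transcription factors at the core of the network that holds embryonic stem cells in the pluripotent state. SALL4, a zinc finger factor, and PRDM14, a PR domain protein of stem cells and germ cell precursors, act beside them, and LIN28A and its paralog LIN28B are RNA-binding proteins that block maturation of let-7 microRNAs. These genes are generally silent in differentiated cells such as fibroblasts, and methylation of the POU5F1 and NANOG promoters in somatic cells is textbook knowledge. MIRA reads increase with methylation and with the number of CpG sites in a window. A low value can therefore stand for unmethylated DNA or for DNA poor in CpG sites, and these cannot be told apart here. Levels of different genes are not degrees of methylation for the same reason, and RNA of these genes was not analysed here.

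Of the 18 values for the 3 regions of 6 genes, 5 were above the median of all labelled genes, those of the first window and body of POU5F1, the upstream window and body of SALL4 and the upstream window of LIN28A. Over the 6 libraries 5171 reads fell in the 65 windows, of which SALL4 held 3272 (63.3%), and the 9 windows of SALL4 and POU5F1 together held 75.9%. There were fewer than 10 reads over all libraries in 23 of the 65 windows, and only 5 windows, 3 of SALL4 and 2 of POU5F1, passed the filter of at least 1 CPM (counts per M counted reads) in at least 3 libraries. None of the 6 genes had its first window, its upstream window or its body among the highest 10% of all labelled genes. The median percentile of the 6 first windows was 28.1, and 5 of 6 were below the median of all labelled genes, which was 0.0476 RPKM with a 90th percentile of 0.550. A single window of 3 kb with 0 reads allows up to 3 counts, which correspond to 0.0147 RPKM in the deepest library and 0.0308 RPKM in the shallowest. Limits of this kind cover counting error only. The values of NANOG, of the first windows of LIN28B and SALL4 and of the upstream window of POU5F1 were at or near them.

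**Figure D1:**
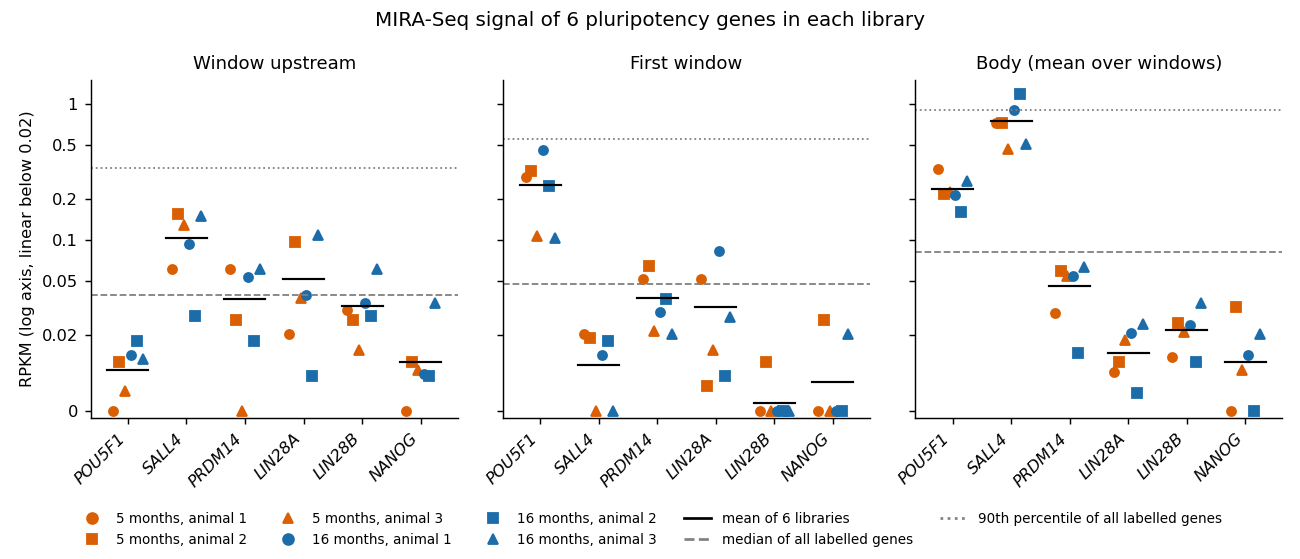
MIRA-Seq signal (RPKM, log axis that is linear below 0.02) of the upstream window, first window and body of each gene, with 1 point per library (orange 5 months, blue 16 months, symbol for the animal), the mean of 6 libraries as a bar, and the median and 90th percentile of all labelled genes as lines. POU5F1 is the one gene whose first window lies above the median line in all 6 libraries, and the body means of SALL4 and POU5F1 lie above those of the other 4 genes in every library.

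POU5F1, also known as OCT4, had the highest first window of the 6 genes. This window, at chr23:27767793-27770792 on the plus strand (UMD v3.1), carries the label of the first coding segment of the gene. In the 5-month cultures of animals 1, 2 and 3 it held 28, 50 and 20 reads, or 0.287, 0.322 and 0.106 RPKM. At 16 months it held 93, 27 and 15 reads, or 0.455, 0.249 and 0.103 RPKM. The mean was 0.254 ± 0.135 (SD, n = 6), at percentile 81.2 among first windows, with a range over single libraries from 62.2 to 86.4. Both libraries of animal 3 were the lowest, and the values of the 2 ages overlapped, with means of 0.239 ± 0.116 at 5 months and 0.269 ± 0.177 at 16 months (SD, n = 3 each).

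The signal of POU5F1 began at the first window and was not continuous through the gene. The upstream window, which is labelled BOLA after the cattle histocompatibility genes around this locus, held 0 to 3 reads per library and had a mean of 0.0108 RPKM (percentile 16.9). Within the gene the middle window dropped to 0.0894 ± 0.0388 RPKM (SD, n = 6). In the last window, at chr23:27773793-27776792, the values were 0.564, 0.283 and 0.351 RPKM at 5 months and 0.367, 0.277 and 0.472 RPKM at 16 months. With a mean of 0.386 ± 0.112 this window ranked at percentile 92.9 of all windows, and it held 51.9% of the reads of the gene, against 35.7% in the first window. The share of the first window varied from 16.0% to 51.4% between libraries. The body of POU5F1 averaged 0.238 ± 0.0584 RPKM (percentile 69.8) and was above the first window in 3 libraries and below it in the other 3. Past the gene, in windows labelled TCF19 and CCHCR1, the mean was 0.130 RPKM at 9 kb from the first window and reached 1.43 RPKM at 21 kb.

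NANOG, the other core factor, was near the limit of detection throughout. Its first window, at chr5:101870406-101873405 on the plus strand, held 4 reads in the 5-month culture of animal 2, 3 reads in the 16-month culture of animal 3 and none in the other libraries. The mean was 0.00771 RPKM, at percentiles from 3.44 to 25.3 in single libraries. The upstream window held 12 reads over all libraries and the only body window held 13, with a mean of 0.0130 RPKM at percentile 8.07 among bodies. Signal of 0.298 RPKM was present 15 kb upstream of the first window, in a window that carries no gene label, while windows from 12 kb upstream to 12 kb downstream had means between 0.00771 and 0.0186 RPKM. Processed copies of NANOG, POU5F1 and LIN28 genes occur in mammalian genomes and how the alignment treated reads with more than 1 match was not given in the sources used here, so the counts of these genes are uncertain to that extent.

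SALL4 combined a first window near 0 with the highest body of the 6 genes. The first window, at chr13:80310797-80313796 on the minus strand, held 2, 3 and 0 reads in animals 1, 2 and 3 at 5 months, then 3, 2 and 0 at 16 months, with a mean of 0.0122 ± 0.00962 RPKM (SD, n = 6, percentile 16.6). The body held between 352 and 912 reads per library. Its levels were 0.722, 0.718 and 0.466 RPKM at 5 months and 0.892, 1.17 and 0.503 RPKM at 16 months, with a mean of 0.745 ± 0.260 at percentile 87.6 (83.3 to 91.2 in single libraries). Both libraries of animal 3 again had the lowest values, and the ages overlapped.

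The body signal of SALL4 lay in its 3 most 3′ windows, each of which prints a coding segment. These windows held 96.3% of the reads of the gene and at least 93.0% in any library. The window at chr13:80298797-80301796, with coding segment 3, had 2.31, 2.05 and 1.29 RPKM at 5 months and 2.59, 3.70 and 1.29 RPKM at 16 months. Its mean of 2.21 ± 0.904 was at percentile 99.1 of all windows, and it held 58.3% of the reads of the gene, where the highest window of the 1039 genes with 6 windows held a median of 37.6% and a 90th percentile of 60.8%. The windows on either side averaged 0.765 and 0.638 RPKM. The pair of windows between the first window and this block had means of 0.0611 and 0.0568 RPKM. Added over libraries, the highest depths of coverage were 0.113 to 0.277 of the read count in the 5 SALL4 and POU5F1 windows passing the filter. Reads stacked on 1 position would give a value of 1. Upstream of SALL4 the signal was 0.102 ± 0.0510 RPKM (percentile 75.9), above the first window in all 6 libraries.

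**Figure D2:**
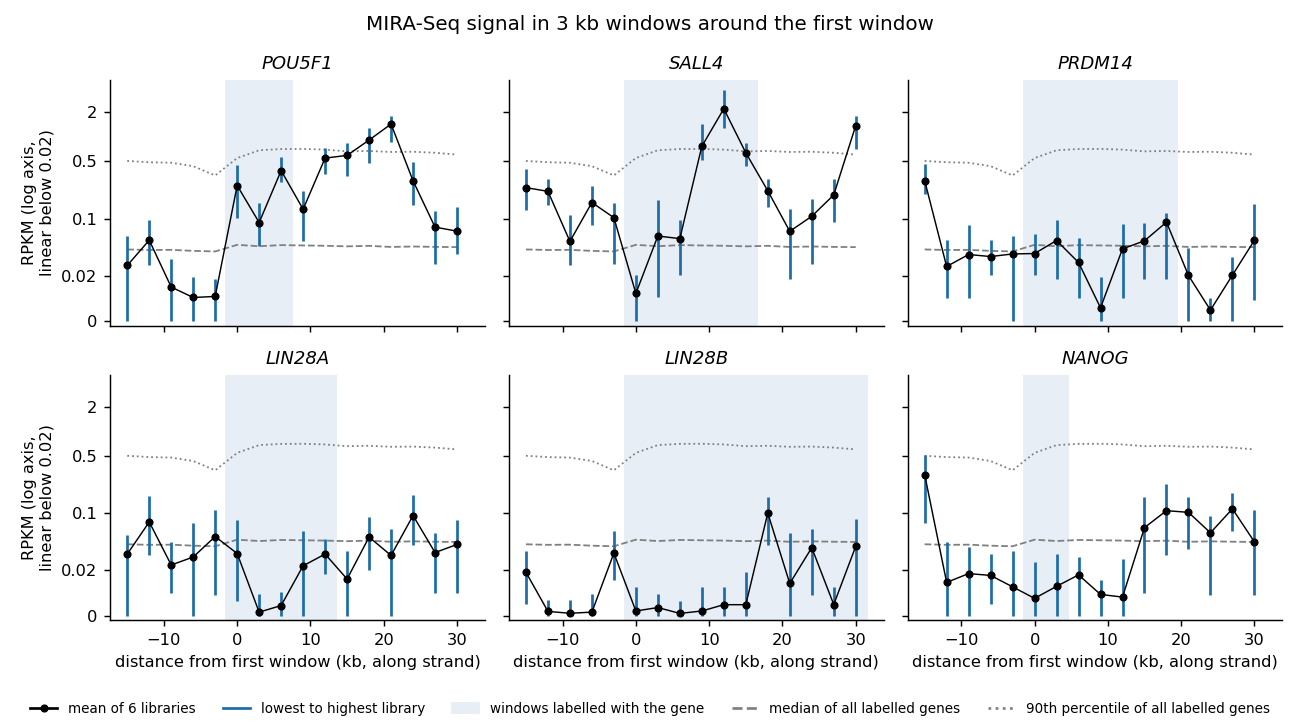
Mean RPKM over 6 libraries (black, log axis that is linear below 0.02) of each 3 kb window from 15 kb upstream to 30 kb downstream of the first window along the strand of the gene, with vertical lines from the lowest to the highest library, shading for windows labelled with the gene, and the median and 90th percentile of all labelled genes at the same distance. SALL4 rises to 2.21 RPKM at 12 kb from a first window of 0.0122, POU5F1 has 2 windows above its neighbours at 0 and 6 kb, and PRDM14 and NANOG have their highest values of the range, 0.292 and 0.298 RPKM, 15 kb upstream and outside the genes.

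PRDM14 had intermediate values with no pronounced peak. Its first window, at chr14:35912947-35915946 on the minus strand, held 5, 10 and 4 reads in animals 1, 2 and 3 at 5 months, then 6, 4 and 3 at 16 months, with a mean of 0.0373 ± 0.0175 RPKM (SD, n = 6, percentile 43.6). The window prints coding segment 3 of the gene. The upstream window, labelled with the neighbouring gene NCOA2, had a mean of 0.0369 RPKM. The 6 body windows averaged 0.0458 ± 0.0190 RPKM (percentile 35.5), and the highest of them, at chr14:35894947-35897946, reached 0.0904 RPKM over 86 reads in all.

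The 2 LIN28 paralogs were both low, and the first window of each prints coding segment 2. The first window of LIN28A, at chr2:127309334-127312333 on the minus strand, held 5, 1 and 3 reads in the 5-month cultures, then 17, 1 and 4 in those of 16 months. Its mean of 0.0322 ± 0.0298 RPKM (percentile 39.7) rested largely on animal 1, with 0.0513 RPKM at 5 months and 0.0832 at 16 months, the highest values of the libraries. Over all libraries the highest depths added up to 0.581 of its 31 reads. A library with 1 read gives a value of 1 in any case, so this ratio does not show whether many reads overlapped. The body of LIN28A, of 4 windows, averaged 0.0152 RPKM (percentile 9.51), led by the window at chr2:127297334-127300333 with 0.0317 RPKM. The first window of LIN28B, at chr9:45663651-45666650 on the minus strand, held 2 reads in the 5-month culture of animal 2 and none in the other 5 libraries (percentile 4.25). The gene spans 42 windows, the longest run of the 6, and its 41 body windows averaged 0.0218 ± 0.00778 RPKM (percentile 14.7). The highest of them, at chr9:45645651-45648650, 18 kb into the gene, had 0.101 ± 0.0398 RPKM and 11.4% of the reads of the gene, close to the median of 11.7% for the 69 genes of the same number of windows. Upstream windows had means of 0.0520 RPKM in LIN28A and 0.0327 RPKM in LIN28B.

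The order of the first windows was POU5F1, PRDM14, LIN28A, SALL4, NANOG and LIN28B. POU5F1 was 6.80 times PRDM14 and above it in all 6 libraries, with no overlap of their ranges, and every later pair of neighbours overlapped. In the body the order was SALL4, POU5F1, PRDM14, LIN28B, LIN28A and NANOG. SALL4 exceeded POU5F1 3.14 times and POU5F1 exceeded PRDM14 5.18 times, in both cases in 6 of 6 libraries without overlap, and the ranges of the remaining neighbours overlapped. Between upstream windows all neighbours overlapped.

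The first window was below the mean of the body in all 6 libraries in SALL4 and LIN28B, 2 of the 6 genes, where this held for 44.9% of all labelled genes with a body. In LIN28B 5 libraries had no read in the first window, and in 3 of them the body was above the level that such a count allows, with 0.0212 RPKM against 0.0160 in the 5-month culture of animal 3 and, at 16 months, 0.0237 against 0.0147 in animal 1 and 0.0342 against 0.0205 in animal 3. In the 5-month culture of animal 1 and the 16-month culture of animal 2 the difference was not detectable at this depth. The 5-month culture of animal 2 had 0.0129 RPKM in the first window against 0.0245 in the body, a direction that rests on 2 reads in the first window. The opposite, a first window above the body in all 6 libraries, was found in 0 of the 6 genes and in 15.9% of all genes, a description to which no test was applied. Windows that print a coding segment were above the other windows of the gene in all 6 libraries in SALL4 (0.905 against 0.0589 RPKM), PRDM14 (0.0506 against 0.0296) and LIN28A (0.0289 against 0.00309). In LIN28B, the fourth gene that has both kinds of window, this was so in 1 library (0.0139 against 0.0221). The windows of LIN28A without a coding segment held 2 and 5 reads over all libraries, so its direction in single libraries rests on few reads. Of all genes with both kinds, 53.2% had coding windows higher in all 6 libraries, a background that 3 of 4 does not clearly exceed.

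Ages were compared in edgeR by the quasi-likelihood test, blocked by animal and adjusted after Benjamini-Hochberg over all features of the table, where called features had to differ at least 2-fold at an FDR under 0.1. Log2 fold changes are 5 months minus 16 months. No age difference was called in any window, promoter or body of the 6 genes. In the windows, 0 of the 5 that passed the filter were called, against 0.185% of all 104658 windows tested. At an unadjusted p under 0.05, 1 of the 5 differed, as did 7429 of all windows tested. By edgeR's likelihood-ratio test and by DESeq2 0 of the 5 were called and 1 had such a p, beside 7676 and 2271 of all windows.

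That 1 window was the coding window of SALL4 at chr13:80301797-80304796. It had 2.48, 3.25 and 4.24 CPM at 5 months and 4.37, 7.68 and 4.17 CPM at 16 months in animals 1, 2 and 3. These CPM were scaled by the TMM factors of the fit. In RPKM the values were 0.554, 0.631 and 0.522 at 5 months and 0.895, 1.43 and 0.561 at 16 months, with animal 3 lowest at both ages. The ages overlapped, since the values of animal 3 were nearly equal, with a difference of 0.02 on the log2(CPM + 0.5) scale. The differences were −0.71 in animal 1 and −1.13 in animal 2, which were higher at 16 months. The log2 fold change was −0.69 (SE 0.22) with an adjusted p of 0.214 by edgeR's quasi-likelihood test. Without animal 3 it was −1.02, with an adjusted p of 0.00682 in edgeR, in a fit that called 1278 windows against 194 with all animals, and without animal 2 it was −0.38. The neighbouring window with the highest signal of SALL4 had −0.36 (SE 0.24, and −0.07 without animal 2) and the last window −0.17 (SE 0.22). This last window was the only 1 of the 5 with the same direction in all 3 animals, where 26.0% of all windows had it. The windows of POU5F1 had −0.13 (SE 0.41) in the first and 0.06 (SE 0.28) in the last.

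For promoters, reads of the first and the upstream window were summed, and CPM were taken over all such sums, so that all 6 genes passed the filter. None was called, against 0.0121% of 24855 promoters tested, and 0 had an unadjusted p under 0.05 in edgeR's quasi-likelihood and likelihood-ratio tests or in DESeq2, where 610, 864 and 164 of all promoters had one. The log2 fold changes were −0.19 (SE 0.37) in POU5F1, 0.39 (SE 0.50) in SALL4, −0.15 (SE 0.61) in PRDM14 and −0.13 (SE 0.58) in LIN28A. With few reads the errors were larger, as in LIN28B with −0.54 (SE 0.86) and NANOG with −0.69 (SE 1.11), which was −2.03 without animal 2. In 0 of the 6 promoters did all 3 animals have the same direction, which 19.3% of all promoters had.

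Of the bodies, 5 of 6 passed the filter and that of NANOG did not. None was called, against 0.0165% of 18181 bodies tested, and again 0 had an unadjusted p under 0.05 by edgeR's quasi-likelihood test, its likelihood-ratio test or DESeq2, where 89, 136 and 82 of all bodies had one. The log2 fold change was −0.33 (SE 0.29) in SALL4 and 0.32 (SE 0.44) in POU5F1. It was 0.27 (SE 0.53) in PRDM14, −0.12 (SE 0.37) in LIN28B and −0.02 (SE 0.82) in LIN28A. POU5F1 was the only 1 of these 5 with the same direction in all 3 animals, against 13.7% of all bodies. With 3 pairs and counts of this size a change of 2-fold in the promoters of NANOG or LIN28B would lie within about 1 SE, so that such a change was not detectable at this depth. The other promoters had SEs of 0.37 in POU5F1, 0.50 in SALL4, 0.61 in PRDM14 and 0.58 in LIN28A. A 2-fold change there could also go uncalled. The promoter of PDGFRA, a fibroblast gene, was not called even at −2.30 (adjusted p 0.796 by edgeR's quasi-likelihood test).

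**Figure D3:**
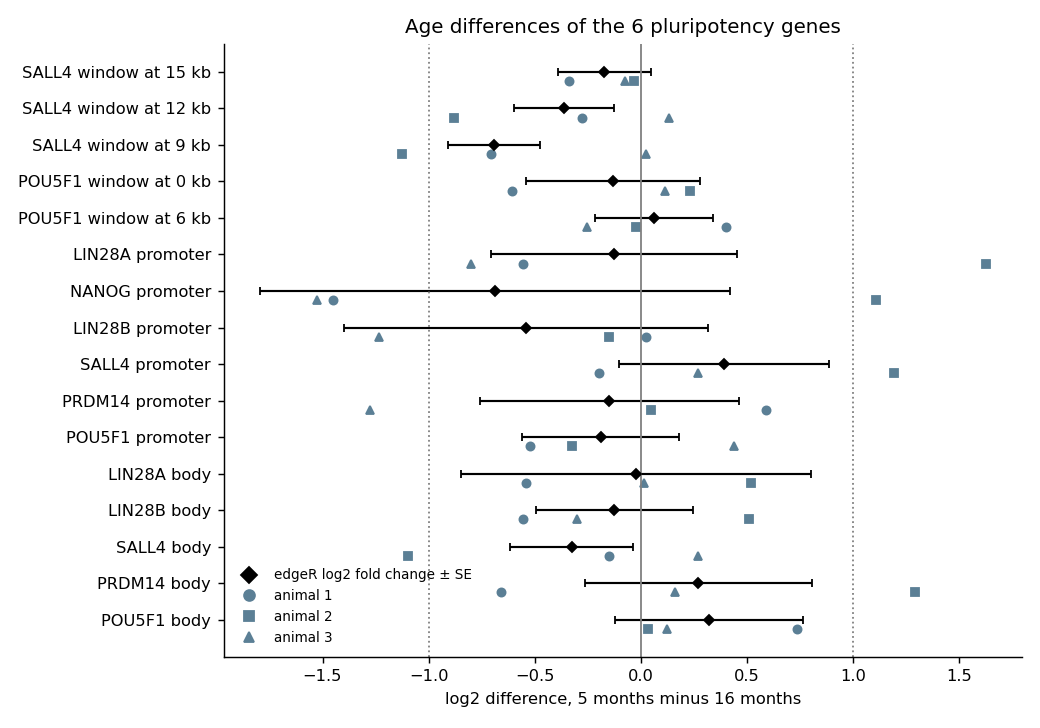
Log2 difference of 5 months minus 16 months for every tested window (named by its distance from the first window), promoter and body of the 6 genes, with the edgeR estimate ± SE (black) and the difference in each animal on the log2(CPM + 0.5) scale (blue symbols); dotted lines mark a 2-fold change. The SE bars cross 0 except in the SALL4 windows at 9 and 12 kb and the SALL4 body, and no estimate passes 2-fold.

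Differences between animals were examined in the same fit, a test chosen after the values had been seen. The last window of POU5F1 differed between animals (adjusted p = 0.0321 by edgeR's quasi-likelihood F test). It is 1 of 5 windows of the 6 genes, where 31.6% of all windows tested passed the same FDR of 0.1. In this window animal 3 was highest in TMM-scaled CPM at 5 months, with 2.86 against 2.53 in animal 1 and 1.46 in animal 2. It was also highest at 16 months, against 1.79 and 1.49. By RPKM animal 1 was highest at 5 months, with 0.564 against 0.351 in animal 3, so the order at that age depends on the scaling. In the first window of POU5F1 animal 3 was the lowest, and edgeR's adjusted p was 0.202 there.

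The 6 genes were set beside lists of other genes by the percentile of the first window. The list of other pluripotency factors (26 of 30 labelled) is loose and holds genes that are not core factors, such as TERT and TEAD4. It had a median percentile of 46.3 and 3 of 26 in the highest 10%. Among these were TERT, the catalytic subunit of telomerase, with 0.981 ± 0.371 RPKM, and the orphan nuclear receptor gene ESRRB with 0.803 ± 0.300 (SD, n = 6 each). At the low end were GDF3, a TGF-beta family ligand, with 0.00757 RPKM, TEAD4 with 0.00919 and MYCN with 0.00950, values close to that of NANOG. TEAD4 and MYCN had bodies of 0.670 and 0.701 RPKM, so a low first window with a high body was found in other genes than SALL4 too. The promoter of TBX3 was the only one of the lists called for age, with a log2 fold change of −2.00 and an adjusted p of 0.00552 by edgeR's quasi-likelihood test. This call was lost without animal 1, without animal 3, without the block and in DESeq2, where 0 promoters of any gene were called.

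Germline genes, most of which are generally described as silent in somatic cells, had higher first windows than the 6 genes by the median percentile. Whether either set was silent in these cultures was not tested. Of 18 labelled genes 1 was below the median of all genes and 6 were in the highest 10%, with a median percentile of 84.5. TDRD9, NANOS3 and MAEL led with 1.55, 0.967 and 0.844 RPKM, and PIWIL1, TDRKH and TEX11 were lowest with 0.0522, 0.0502 and 0.0147 RPKM. Only POU5F1, at percentile 81.2, lay near the median of this list. In the body the median percentile of the germline genes was 33.9, and that of the 6 genes was 25.1, with POU5F1 and SALL4 at 69.8 and 87.6 and the others between 8.07 and 35.5.

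Genes known for their expression in fibroblasts had low first windows. The 12 dermal fibroblast genes had a median percentile of 19.5 in the first window, with 10 of 12 below the median of all genes. COL3A1, FAP and DCN had 0.000815, 0.00252 and 0.00366 RPKM, and the highest, THY1, TWIST1 and PDGFRA, had 0.0509, 0.0495 and 0.0472. The 10 marker genes of other skin cells (keratinocytes, endothelium, melanocytes) had a median percentile of 74.7 with 2 of 10 below the median, from PMEL at 0.0131, TP63 at 0.0150 and KDR at 0.0570 up to KRT14 at 0.523, CDH5 at 0.686 and KRT5 at 0.747 RPKM. These libraries hold no RNA, so the markers describe methylation signal and do not measure the cell type. The first windows of 5 of the 6 genes, all but POU5F1, were in the range of the fibroblast genes. Those of POU5F1, PRDM14 and LIN28A were in the range of the other skin cell genes, so the ranges overlap.

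Housekeeping genes (14 genes at 15 labelled places) had a median percentile of 48.6, with GUSB and PGK1 among the highest at 0.674 and 0.285 RPKM and both places of PPIA (0.00511 and 0.0191) and GAPDH (0.0199) lowest. Among 7 labelled DNA methylation enzymes the median was 79.9, from TDG at 0.0102, DNMT1 at 0.0305 and UHRF1 at 0.0913 RPKM up to DNMT3L at 0.385, TET3 at 0.840 and DNMT3A at 0.950. Paralogs of the 6 genes (16 of 19 labelled) had a median percentile of 45.5 in the first window and 71.0 in the body, where 1 of 10 was below the median of all genes. POU3F4, PRDM16 and POU6F1 were highest with 0.518, 0.294 and 0.242 RPKM, and POU2F1 and POU3F2 were lowest with 0.00895 and 0.0105. The paralogs SALL1 and SALL2 had first windows of 0.0964 and 0.0184 RPKM and bodies of 0.405 and 0.612 RPKM, beside 0.0122 and 0.745 RPKM in SALL4. PGK1, POU3F4 and TEX11 among the named genes lie on chromosome X, and genes of this chromosome were not set apart in the lists. No test was applied to the lists.

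**Figure D4:**
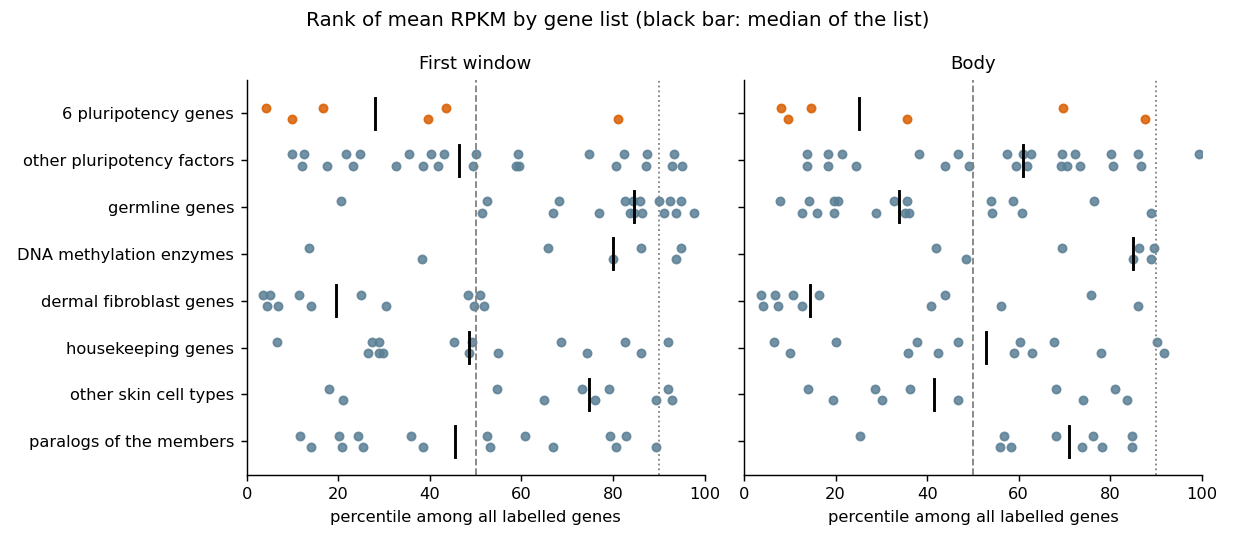
Percentile of the mean RPKM among all labelled genes, for the first window (left) and the body (right), with 1 point per gene and a black bar at the median of each list; dashed and dotted lines mark percentiles 50 and 90. The 6 genes (orange) have medians of 28.1 and 25.1, and germline genes have 84.5 in the first window and 33.9 in the body.

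The genes with the pattern most like each of the 6 were sought by the distance over 18 values, the log2(RPKM + 0.05) of the first window, the upstream window and the body in 6 libraries, among 21435 labelled genes. For POU5F1 these were LOC100848192 (distance 1.25) and BARX2 (1.34), where the median distance to all genes was 6.57. BARX2 had 0.256 RPKM in the first window, 0.0115 upstream and 0.178 in the body. For SALL4 they were TAOK2 (1.16) and TRIO (1.27) against a median distance of 8.17, and TAOK2 had 0.0144, 0.101 and 0.768 RPKM in the same 3 regions. For the low genes the nearest were IBSP (0.538) and LOC100847997 (0.649) for NANOG, FAM164A (1.14) and C12H13orf27 (1.31) for LIN28A, IFI16 (0.562) and ANGPTL5 (0.694) for LIN28B, and C20H5orf41 (1.12) and ZNF167 (1.16) for PRDM14. Small distances among low genes mean mainly that few reads were present, since the 18 values of such genes are all near the value that 0 reads give.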

How the data were processed

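MIRA-Seq libraries of 6 fibroblast cultures (3 animals at 2 ages) were analysed, with groups and animals taken from the sample labels. After filtering, the authors mapped reads with NextGENe 2.3.4 to UMD v3.1, a bovine assembly, and deposited raw read counts per 3 kb window, without normalization. Beside the counts the deposited files give the highest depth of coverage, a signal not scaled to library size, which was used only to look for stacked reads. PCR copies were not removed here, and how the authors treated them was not given in the sources used here. Counts were read in Python 3.11.15 (numpy 2.4.6, pandas 2.3.3, scipy 1.17.1, matplotlib 3.10.9) and fitted in R 4.3.3 with DESeq2 1.42.0, limma 3.58.1 and edgeR 4.0.16.

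RPKM were taken over the matched reads of the file headers (32.5 to 68.1 M). CPM printed for the comparisons of ages and animals were scaled by TMM factors over the features that passed the filter, while the filter used unscaled CPM. Windows running over the end of a sequence (1146) were taken as 3 kb. Windows, promoters (first plus upstream window) and bodies were each fitted over the whole table with TMM factors, a filter of 1 CPM in 3 of 6 libraries (CPM over the reads of that table's own features for promoters and bodies), the animal as a block and edgeR's quasi-likelihood test. Fold changes have 2 residual degrees of freedom, with the spread shared across features. P-values for age by the quasi-likelihood test set the age difference against the scatter of such differences over 3 animals, with 1 culture each per age. That scatter was drawn largely from all features, with prior degrees of freedom of 178 in windows and infinite in promoters and bodies. P-values of promoters and bodies therefore hold no spread particular to the gene. The scripts were tested on simulated data of 1 common spread. It was near that of windows (dispersion 0.0382) and below that of promoters (0.0957) and bodies (0.0798), so the test does not cover the real spread of those 2. The pairing comes from the animals, and the deviations of libraries of 1 animal from the age means correlated at 0.290, 0.544 and 0.710 in windows, at 0.113, −0.085 and 0.421 in promoters and at 0.268, −0.216 and 0.727 in bodies.

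A printed coding segment number need not count from the 5′ end, since genes of 1 window print segment 1 in 90.1% of cases on the plus strand and in 55.8% on the minus strand. Of the labels, 17739 of 26107 matched symbols of RefSeq's ARS-UCD2.0 table, the 6 genes among them. No coordinates of that table were used, and first windows were not checked against annotated transcript starts. Genes named are the 6 members with their highest body window, member windows at an unadjusted p under 0.05, the 3 highest and 3 lowest first windows of each list, list genes called for age and the 2 nearest genes by distance. Some list genes that this rule names are not reported here. TEAD4 and MYCN bodies, SALL1 and SALL2 and the genes next to POU5F1 were singled out after their values were seen. The members and lists were chosen with earlier results of these data known. The lists are other pluripotency factors, germline genes, DNA methylation enzymes, dermal fibroblast genes, housekeeping genes, other skin cell types and paralogs. Alternatives were other tests, scalings, filters, thresholds and summaries, no block, and leaving out each animal.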

Additional observations from a re-analysis of the deposited data

How the results depend on the processing

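The number of members called for age stayed at 0 in windows, promoters and bodies under other tests, scalings, filters and thresholds, with 1 exception. Leaving out each animal gave 0 to 1 called windows, the 1 being the SALL4 window at 80301797 without animal 3, and 0 promoters and bodies. Without the replicate block, that is without the pairing by animal, 0 members were called in each table, and that SALL4 window had a log2 fold change of −0.69. Over all windows 0 were called without the block against 194 with it, and leaving out animals 1, 2 and 3 gave 14, 68 and 1278. DESeq2 called 15 windows, library size scaling 99, a filter of 0.5 CPM 96, no fold change threshold 340 and no filter 2 of 884574. Over all promoters 3 were called, against 43 without animal 2, 0 without animal 1 or 3, without the block or in DESeq2, 5 by the likelihood-ratio test or DESeq2 size factors, 17 by library size and 24 with the 1 CPM filter over all windows, which was added after the data were seen and kept 1 member promoter. Over all bodies 3 were called, against 186 without animal 2, 0 without animal 1, 1 without animal 3, 2 in DESeq2, with its size factors, with no filter or with the added filter, and 0 by library size or without the block. In uncalled members most log2 fold changes moved by over 1.5 times when an animal was left out, and in some the sign turned. The ranges of these were −0.37 to 0.25 and −0.18 to 0.28 in the POU5F1 windows at 27767793 and 27773793, −0.78 to 0.43 in the LIN28A promoter, −0.63 to 0.40 in the PRDM14 promoter, −0.38 to 0.0073 in the POU5F1 promoter, −0.27 to 0.29 in the LIN28A body, −0.62 to 0.10 in the SALL4 body, −0.19 to 0.66 in the PRDM14 body and −0.028 to 0.50 in the POU5F1 body. Without a turn of sign, the NANOG promoter ranged from −2.03 to −0.43, the SALL4 promoter from 0.0052 to 0.66, the LIN28B promoter from −0.82 to −0.024, the LIN28B body from −0.39 to −0.016 and the SALL4 windows at 80295797, 80298797 and 80301797 from −0.23 to −0.06, −0.59 to −0.07 and −1.02 to −0.38. With no filter the LIN28A body had 0.0038. The count of members in the highest 10% stayed at 0 in every alternative run. With the median over libraries, a comparison of 1 value per gene, 2 members had the first window above the body, against 0 in all 6 libraries. Of 125 recomputed percentiles of members 122 moved by less than 1 SD. The others were PRDM14 first (28.7 with windows of a high depth per read left out) and the bodies of POU5F1 (75.1) and LIN28B (10.8) with the median over body windows. The largest shift was 20.6 points, within the wide SD of LIN28A first, from 39.7 to 19.1 without animal 1, and SALL4 first went from 16.6 to 26.3 without animal 3. Depth limits most the values of NANOG, the first windows of SALL4 and LIN28B and the upstream window of POU5F1, with 2 to 13 reads per region over all libraries. CpG content could not be set beside the signal.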
